A study of Homo sapiens with 6 samples.

Results

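TOMM34 and 7 genes of the TOM complex were examined in colorectal cancer cells with and without CNOT7 knockdown. TOM is the translocase of the outer mitochondrial membrane. The members were taken by name (TOMM34, TOMM20, TOMM22, TOMM40, TOMM40L, TOMM5, TOMM6 and TOMM7), and all 8 had a row among the 58735 genes of the count table. Of these, 7 had enough counts for a test and TOMM6 had none. TOMM34 was chosen by its measured counts, which differ between the groups of these libraries, so its values are a description and carry no test. The other genes were listed for their place in the complex, and the question was whether the difference in TOMM34 extends to them.

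RNA was sequenced from 3 control libraries (labelled CNOT7 control) and 3 libraries of cells that carried a stable CNOT7 knockdown by shRNA, none of them treated. CNOT7 is a deadenylase of the CCR4-NOT complex, which shortens the poly(A) tails of mRNAs. The labels name the cell line SW480 and the paper names HCT116, both established colorectal cancer lines. Neither source says whether the knockdown libraries hold 1 shRNA or several, or 1 clone or a pool, nor whether replicates came from separate cultures, so the p-values measure the spread between these libraries, which may be technical. Total counts ranged from 23788451 to 29104872 per library. CNOT7 itself was at 169.1, 191.1 and 175.8 CPM in the controls and at 43.4, 47.2 and 38.6 CPM in the knockdown libraries, where CPM is the count scaled to library size with TMM normalization. Of 9 colorectal epithelial markers, 7 were expressed, with KRT8 between 2347 and 2861 CPM and EPCAM between 208.0 and 229.7 CPM, while KRT20 and LGALS4 reached at most 0.160 and 0.326 CPM. Among the 7, CDH1 and VIL1 were higher and KRT8 and KRT19 lower with CNOT7 knockdown, and the part of these differences in the results below was not tested. Of 6 markers of other cell types, 5 reached at most 0.571 CPM and COL1A1 lay between 7.09 and 9.64 CPM.

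Most mitochondrial proteins are made in the cytosol and enter the organelle through TOM. Cytosolic chaperones of the HSP70 and HSP90 families hold the newly made precursors unfolded. TOMM20 and TOMM70 are the receptors that recognise them, TOMM22 passes them on and holds the complex together, and TOMM40 forms the pore. The small subunits TOMM5, TOMM6 and TOMM7 help to assemble and steady the complex. TOMM34 is not a core subunit. It is a largely cytosolic co-chaperone with tetratricopeptide repeats (TPR, helical repeats that bind the tails of chaperones) that brings HSP70 and HSP90 together.

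The promoters of these genes were read for the sites of factors known for mitochondrial and housekeeping genes, to show what the members share apart from expression. Promoter sequences came from RefSeq on GRCh38.p14 and were found for 7 of the 8 members. The core motif of the respiratory factor NRF1 (GCGC, then 2 bases of any kind, then GCGC, which reads the same way on both strands) was searched in the 250 bases before each RefSeq start. It was found in 4 members (TOMM34, TOMM7, TOMM20 and TOMM40), and in 7.16% of all 35116 windows of this length. These windows were not matched to the members for base composition. Motifs of 2 other factors were searched on both strands. That of ETS (CCGGAAG) was found in TOMM6 and TOMM20 and in 8.52% of windows. That of YY1 (GCCATNTT, with N for any base) was found in TOMM40L and in 3.86% of windows. The 4 NRF1 sites are given with 10 bases on either side, on the strand of the gene and with the motif in capitals.
TOMM34: ttcgccgccgGCGCTTGCGCccggaaggtg
TOMM7: gccgtgtgtgGCGCCTGCGCacctcctttc
TOMM20: ttcgcccactGCGCAGGCGCaggagccgcg
TOMM40: gagccaatagGCGCAGGCGCtgcgagccaa
These lie at chr20:44960392-44960421 (reverse strand), chr7:22822844-22822873 (reverse), chr1:235128919-235128948 (reverse) and chr19:44891022-44891051 (forward). The motif began 14 bases before the RefSeq start in TOMM34 and in TOMM7, 101 bases before it in TOMM20 and 222 bases before it in TOMM40. By the gene bounds of the annotation used for the counts, only the TOMM7 motif lies wholly before the gene. The TOMM34 motif lies inside the gene, which reaches to 44960486, and the TOMM20 motif crosses the edge of its exon at 235128936. The TOMM40 motif lies inside the gene, which begins at 44890569, but outside its exons. These 4 genes did not share a direction, since TOMM20 was higher, TOMM40 lower and TOMM7 not called with CNOT7 knockdown. A match of letters does not show that the factor binds.

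Further upstream, the TOMM34 window outside the annotated exon is shown because TOMM34 is the gene with the large difference. It covers chr20:44960487-44960647, and capitals mark the SP1 motif GGGCGG or its reverse complement CCGCCC, which occurred in 42.6% of all windows.
TOMM34 promoter: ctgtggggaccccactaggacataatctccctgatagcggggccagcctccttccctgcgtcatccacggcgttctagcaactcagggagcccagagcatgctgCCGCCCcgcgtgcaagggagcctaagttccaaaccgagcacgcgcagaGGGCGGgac
The motif was present 2 times in this stretch, and it was also found nearer the start of TOMM34 and, among the other members, in the windows of TOMM40 and TOMM40L.

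TOMM34 (ENSG00000025772) is a reverse-strand gene of chromosome 20 (GRCh38, 44942130 to 44960486), with 1 annotated transcript of 7 exons and 2062 exonic bases. Its level was close to 2 times the control level in each knockdown library. It was measured at 109.5, 106.5 and 110.4 CPM in the control libraries and at 214.3, 212.6 and 217.0 CPM in the knockdown libraries. The groups were far apart and the libraries within each were nearly equal, with a coefficient of variation of 1.87% in the controls and 1.04% with knockdown. The means were 108.8 ± 2.04 CPM (SD, n = 3) and 214.6 ± 2.23 CPM (SD, n = 3), and the log2 fold change was 0.98 with a standard error of 0.0519. These levels are shares of each library, so more RNA per cell and less of other RNA cannot be told apart. Among the 17574 tested genes, 611 (3.48%) had a higher log2 fold change. They were mostly low in the controls. Among the 4833 genes with a control mean of at least 50 CPM, a limit set after the level of TOMM34 was known, 3 had a higher one. Since TOMM34 was chosen for its difference between these groups, a high rank follows from that choice and lends the difference no support.

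**Figure D1:**
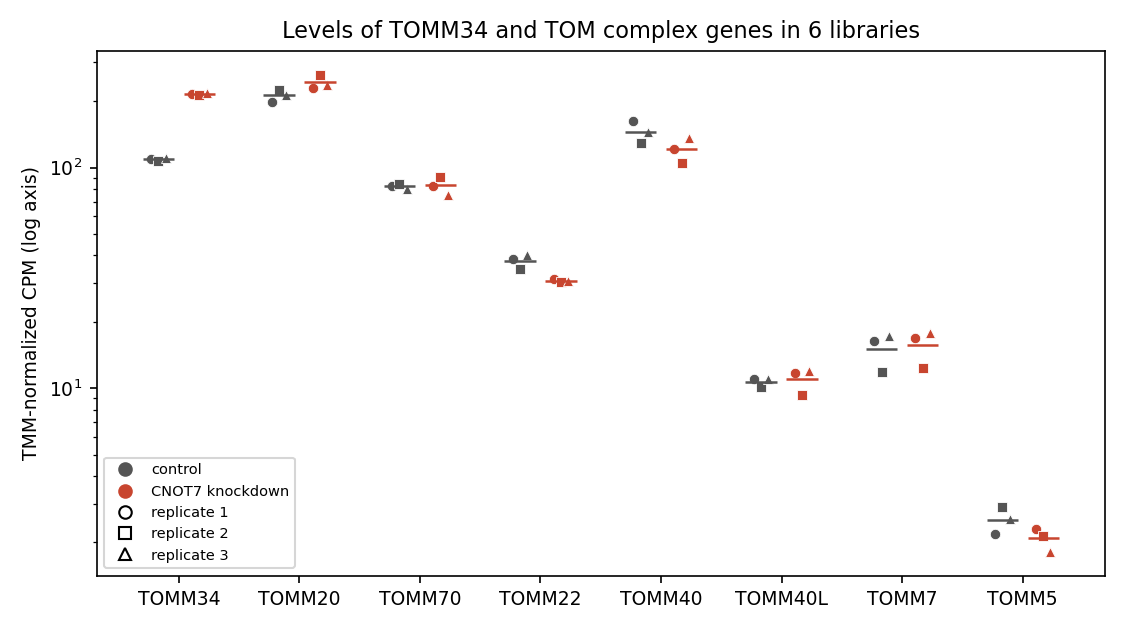
Level of each gene (TMM-normalized CPM, log axis) in the 3 control and the 3 CNOT7 knockdown libraries, with 1 symbol per replicate number and a line at the group mean; TOMM6 had no counts. TOMM34 goes from about 108.8 to 214.6 CPM with almost no spread, and the other genes move far less.

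The 2-fold difference in TOMM34 was not seen in any tested TOM gene. Of the 6 tested members besides TOMM34, 1 was higher (TOMM20) and 2 were lower (TOMM22 and TOMM40) at an adjusted p-value under 0.05 in the edgeR quasi-likelihood fit, adjusted by Benjamini-Hochberg over all tested genes, while 3 were not called. Among all tested genes 13.3% were higher and 11.9% lower, 25.2% in all. The median log2 fold change of the 6 members was -0.11, against 0.0039 over all tested genes, with a range from -0.30 to 0.20. Groups did not overlap in 2 of the 6, TOMM20 and TOMM22, against 38.8% of all tested genes.

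TOMM20 (ENSG00000173726), the receptor for presequences, is on chromosome 1 (reverse strand, 235109336 to 235128936). It was measured at 198.9, 224.0 and 213.5 CPM in the controls and at 230.4, 263.6 and 236.0 CPM in the knockdown libraries. The lowest knockdown library lay just above the highest control library, and in both groups replicate 2 was the highest. TOMM20 rose (log2 fold change 0.20, standard error 0.0618, 95% interval 0.068 to 0.33, edgeR adjusted p = 0.0258), which is 14.7% more than in the controls. The call was lost without knockdown replicate 2 (log2 fold change 0.14, adjusted p = 0.0813), without control replicate 1 (0.15, 0.129) and without control replicate 3 (0.20, 0.0809). The pseudogene TOMM20P4 was at most at 1.45 CPM.

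TOMM22 (ENSG00000100216), the central receptor, is on chromosome 22 (forward strand, 38681948 to 38685421). It was measured at 38.3, 34.7 and 40.1 CPM in the controls and at 31.3, 30.3 and 30.5 CPM in the knockdown libraries. All 3 knockdown libraries lay below the lowest control library. TOMM22 fell (log2 fold change -0.30, standard error 0.0739, 95% interval -0.45 to -0.14, edgeR adjusted p = 0.00662). Without control replicate 3 the adjusted p was 0.0579, with a log2 fold change of -0.25. TOMM20 and TOMM22 thus moved in opposite directions. Per length, TOMM20 was 3.21, 3.99 and 3.30 times the level of TOMM22 in the controls and 4.55, 5.39 and 4.78 times in the knockdown libraries. This ratio could not overlap between the groups, since all knockdown libraries lay above the controls in TOMM20 and below them in TOMM22.

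TOMM70 (ENSG00000154174), the receptor for carrier proteins, is not among the 8 members and was read as the missing receptor of the complex. It was measured at 82.4, 84.6 and 80.0 CPM in the controls and at 82.8, 90.8 and 75.4 CPM in the knockdown libraries. The 2 groups overlapped fully, with a log2 fold change of 0.011 (95% interval -0.13 to 0.15, edgeR adjusted p = 0.925). TOMM20L, a paralog of TOMM20, had between 2 and 8 counts per library, too few for a test.

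TOMM40 (ENSG00000130204), the pore, is on chromosome 19 (forward strand, 44890569 to 44903689). It was measured at 162.6, 128.8 and 145.0 CPM in the controls and at 121.1, 105.0 and 136.6 CPM in the knockdown libraries. Replicate 2 was the lowest in both groups, and the highest knockdown library lay above the lowest control library. TOMM40 fell (log2 fold change -0.27, standard error 0.0874, 95% interval -0.45 to -0.083, edgeR adjusted p = 0.0328). The call was lost when the trend with abundance was removed (-0.21, adjusted p = 0.108) and when control replicate 1 (-0.18, 0.143), control replicate 3 (-0.27, 0.0759), knockdown replicate 1 (-0.28, 0.0921) or knockdown replicate 2 (-0.18, 0.0946) was left out.

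TOMM40L (ENSG00000158882), a paralog of the pore on chromosome 1 from 161225939 to 161230744, was expressed at a low level. It was measured at 11.0, 10.1 and 11.0 CPM in the controls and at 11.7, 9.31 and 12.0 CPM in the knockdown libraries. The groups overlapped, with a log2 fold change of 0.039 (95% interval -0.20 to 0.28, edgeR adjusted p = 0.841). The gene NR1I3 on the opposite strand covers most of the 20.2% of exonic bases of TOMM40L that other genes share, and the sources do not state that counting used strand.

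The small subunits were the least certain. TOMM7 (ENSG00000196683, chromosome 7 from 22812628 to 22822852) was measured at 16.3, 11.8 and 17.3 CPM in the controls and at 16.9, 12.3 and 17.9 CPM in the knockdown libraries. Replicate 2 was far below the other two in both groups, and the log2 fold change was 0.051 (95% interval -0.25 to 0.35, edgeR adjusted p = 0.834). TOMM5 (ENSG00000175768, chromosome 9 from 37582646 to 37592642) had only 54 to 67 counts per library, which is 2.18, 2.88 and 2.55 CPM in the controls and 2.31, 2.14 and 1.81 CPM in the knockdown libraries. Its log2 fold change was -0.28, with a wide 95% interval from -0.70 to 0.13 (adjusted p = 0.328). Of its exonic bases 18.7% are shared with AL138752.2 and AL513165.2 on the same strand, and the part of this sharing in its low count was not tested. TOMM6 (ENSG00000214736, chromosome 6 from 41787662 to 41789898) was listed at 0 in every library. All of its exonic bases (100%) are shared with the gene AL365205.1 on the same strand, which had 67 to 99 counts per library, so the level of TOMM6 cannot be read from this table.

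**Figure D2:**
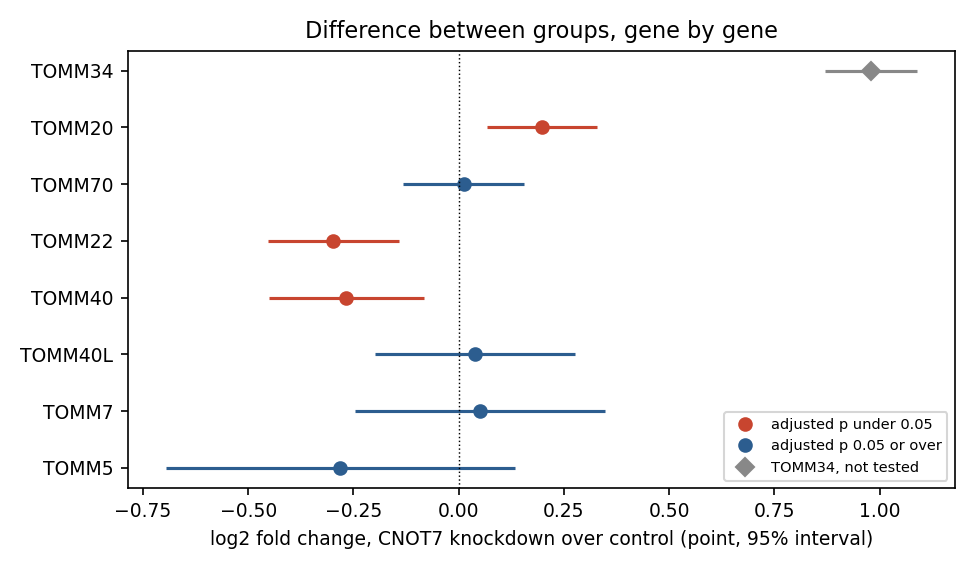
Log2 fold change of CNOT7 knockdown over control (points) with 95% intervals (lines) from the edgeR fit, in red where the adjusted p-value was under 0.05, in blue where it was not, and in grey for TOMM34, which was not tested. The TOM genes lie between -0.30 and 0.20, and the highest upper bound among them is 0.35 for TOMM7, below the 0.98 of TOMM34.

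The libraries varied together in a way that the groups do not explain. In both groups replicate 2 had the lowest CPM of TOMM34, TOMM22, TOMM40, TOMM40L and TOMM7, and the highest CPM of TOMM20 and TOMM70. Coefficients of variation in the controls ran from 1.87% for TOMM34 to 19.4% for TOMM7, and with knockdown from 1.04% to 18.8% for the same genes. The spread of TOMM7 and TOMM40 between replicates was therefore many times that of TOMM34. TOMM34 was chosen for its difference between the groups, so its small spread is no neutral yardstick. TOMM7 had 274 to 532 counts per library, against 2478 to 6463 for TOMM34 and 2897 to 4178 for TOMM40. The part of sequencing depth in these spreads was not tested.

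Levels of different genes were compared as CPM per kilobase of exon. The length is that of all annotated exons of a gene merged, over 1 transcript in TOMM34 and 9 in TOMM40L, for example. Where the expressed transcripts are shorter than this, the level is understated. Which transcripts were expressed was not tested, so the order below is that of this measure only. In the controls TOMM20 was highest with 59.9 ± 3.57 (SD, n = 3), followed by TOMM34 with 52.8 ± 0.988 and TOMM40 with 40.3 ± 4.68. TOMM22 (17.2 ± 1.24), TOMM70 (15.3 ± 0.425), TOMM7 (8.64 ± 1.68), TOMM40L (3.26 ± 0.149) and TOMM5 (0.696 ± 0.0963) came after. The libraries of these neighbours in the order did not overlap, from 56.2 to 63.3 for TOMM20 against 51.7 to 53.6 for TOMM34, for example. The closest were TOMM22 (15.9 to 18.3) and TOMM70 (14.9 to 15.7). In the knockdown libraries TOMM34 came first with 104.1 ± 1.08, above TOMM20 with 68.7 ± 5.02, and TOMM70 (15.4 ± 1.43) and TOMM22 (14.0 ± 0.246) overlapped. Per kilobase, TOMM34 was 0.946, 0.817 and 0.889 times the level of TOMM20 in the controls and 1.60, 1.39 and 1.58 times in the knockdown libraries. Against the pore TOMM40 it went from 1.18, 1.45 and 1.33 times to 3.10, 3.54 and 2.78 times. Since TOMM34 was chosen for its difference between the groups, a shift in its ratios and its place in the order follows from that choice.

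**Figure D3:**
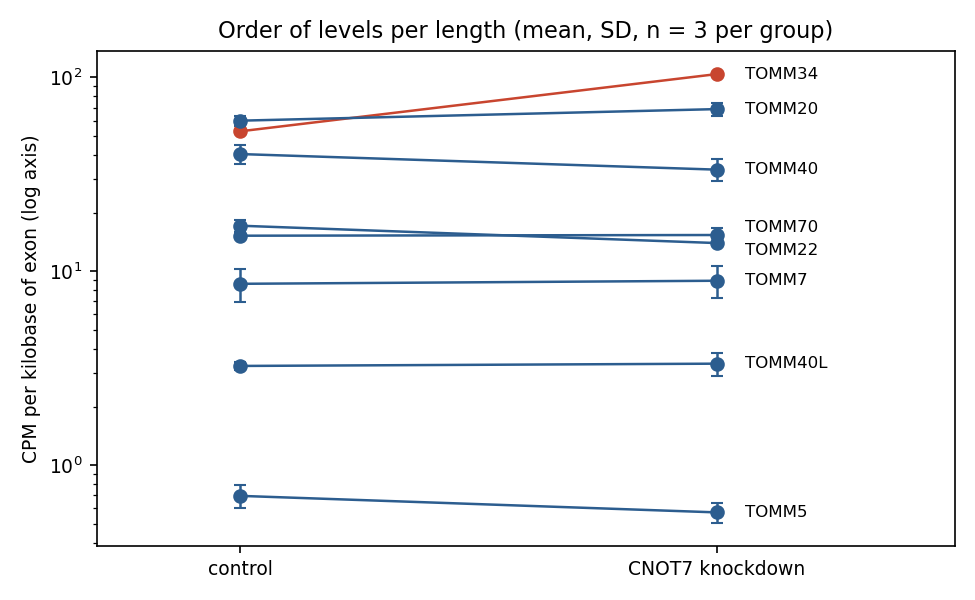
Level per length (CPM per kilobase of all annotated exons merged, log axis) as the group mean with its SD (n = 3) in control and CNOT7 knockdown libraries. TOMM34 in red, chosen for its difference, passes TOMM20, from 52.8 to 104.1, while the order of the other genes changes only for TOMM22 and TOMM70.

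The partners of TOMM34 were read next, from lists of 82 genes for the import route and its chaperones, of which 79 were tested. In all lists together 5 genes were higher and 13 lower with CNOT7 knockdown, with a median log2 fold change of -0.097. That is against 13.3% higher and 11.9% lower among all tested genes, whose median was 0.0039. These counts moved with single libraries. They fell to 1 higher and 8 lower without knockdown replicate 1 and without control replicate 3, and to 1 and 9 without control replicate 1. Without control replicate 2 they were 4 and 21, and without knockdown replicate 2 they were 3 and 15. DESeq2 gave 2 higher and 16 lower genes, and a fit with no filter on low counts gave 2 and 18. With the trend with abundance removed the counts were 7 higher and 9 lower, and with the trend with gene length removed 4 and 19. The lean toward lower genes in these lists thus depended on how abundance was treated. Calls over all tested genes moved as well, from 2329 higher and 2095 lower in the main fit. They were 1626 and 1480 without knockdown replicate 1, 1663 and 1367 without control replicate 3, and 1884 and 1606 without control replicate 1. Without control replicate 2 they were 2125 and 2026, and without knockdown replicate 2 they were 2323 and 2219. For all genes DESeq2 gave 1773 and 2084, and no filter gave 2201 and 2342. Removal of the abundance trend gave 2193 and 1833 over all genes, and removal of the length trend 2257 and 2329.

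HSP70 and HSP90 themselves, the chaperones that TOMM34 binds, were not called. HSPA8, the constitutive HSP70, went from 2537 ± 96.1 to 2358 ± 125.0 CPM (SD, n = 3; log2 fold change -0.11, adjusted p = 0.129), and HSP90AA1 and HSP90AB1 had log2 fold changes of -0.053 and 0.082. HSPA1A and HSPA1B, near-identical copies whose reads can be split or lost, had values of 0.0020 and -0.12. Of the 12 genes in this list 0 were higher and 4 were lower, against 13.3% and 11.9% of all tested genes. The 4 were DNAJB6, DNAJB1, DNAJA1 and VCP. The first 3 are J-domain proteins, which hand substrates to HSP70, while DNAJA2, the other J-domain protein of the list, had a log2 fold change of 0.047 and was not called (adjusted p = 0.600). DNAJB6 was measured at 252.5, 257.0 and 251.5 CPM in the controls and at 191.5, 185.9 and 188.0 CPM in the knockdown libraries, and DNAJB1 at 168.2, 165.0 and 173.8 CPM and at 135.4, 127.5 and 128.0 CPM. In both genes the groups lay far apart relative to their spread, with log2 fold changes of -0.43 (standard error 0.0497, adjusted p = 6.86e-06) and -0.38 (standard error 0.0538, adjusted p = 6.25e-05). DNAJA1 had a log2 fold change of -0.25 (adjusted p = 0.00524), and these 3 calls held under all alternatives. VCP, an unfolding ATPase that binds TOMM34, had a log2 fold change of -0.14 (adjusted p = 0.0392), which lost its call when any library except knockdown replicate 2 was left out, with adjusted p-values from 0.0722 (without control replicate 1) to 0.142 (without control replicate 3), through 0.0761 without control replicate 2, 0.0941 without knockdown replicate 3 and 0.129 without knockdown replicate 1, and at 0.299 with the trend with abundance removed.

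Among 15 tested TPR proteins and other co-chaperones related to TOMM34, 2 were higher and 3 lower, with a median log2 fold change of -0.074. Over all tested genes 13.3% were higher and 11.9% lower. FKBP5, an HSP90 co-chaperone, rose from 69.0, 74.5 and 69.1 CPM to 84.3, 85.2 and 82.3 CPM (log2 fold change 0.24, adjusted p = 0.00557). SPAG1, which carries TPR domains like those of TOMM34, fell from 26.5, 27.3 and 27.2 CPM to 19.7, 22.9 and 19.3 CPM (log2 fold change -0.39, adjusted p = 0.00245). PPP5C, a TPR phosphatase of HSP90, fell with a log2 fold change of -0.25 (adjusted p = 0.00436). These 3 calls held under all alternatives. The remaining calls were the small TPR proteins SGTB (log2 fold change 0.22, adjusted p = 0.0349) and SGTA (-0.16, 0.0449), a pair of paralogs with opposite signs. The call of SGTA, close to the threshold, was not followed under the alternatives. SGTB lost its call without knockdown replicate 1 (adjusted p = 0.0742), knockdown replicate 2 (0.11), control replicate 1 (0.107) or control replicate 3 (0.135), and also in DESeq2 (0.0621) and with no filter (0.0844). STIP1, which like TOMM34 binds HSP70 and HSP90 at once, had a log2 fold change of -0.13 and was just short of a call (edgeR adjusted p = 0.0539). Its groups did not overlap, as in 38.8% of all tested genes.

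In the outer membrane list 0 of 10 genes were higher and 3 were lower, against 13.3% and 11.9% of all tested genes, with a median log2 fold change of -0.14. MTCH2, an insertase of the outer membrane, went from 118.7 ± 3.12 to 98.2 ± 2.64 CPM (SD, n = 3; log2 fold change -0.27, adjusted p = 0.00141), and the channel VDAC3 from 101.0 ± 1.23 to 84.1 ± 3.91 CPM (log2 fold change -0.26, adjusted p = 0.00263). DNAJC11, a partner of the sorting machinery, had a log2 fold change of -0.38 (adjusted p = 3.41e-04), and 27.9% of its exonic bases are shared with a gene on the opposite strand. All 3 calls held under all alternatives. SAMM50, the core of the sorting machinery that inserts TOMM40, had a log2 fold change of -0.097 and was not called.

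Further inside the organelle, the counts are read against the 25.2% of all tested genes that were called. Of 14 genes of the TIM23 translocase and its motor, 2 were lower, HSPA9 (the mitochondrial HSP70, log2 fold change -0.18, adjusted p = 0.0149) and TIMM50 (-0.16, 0.0461), and the list median was -0.15. HSPA9 lost its call without knockdown replicate 1 (adjusted p = 0.0611), knockdown replicate 3 (0.0557) or control replicate 3 (0.068) and with the trend with abundance removed (0.0881), and TIMM50 without these 3 libraries (0.102, 0.115 and 0.155), without control replicate 1 (0.171) and with that trend removed (0.183). PAM16 had the largest log2 fold change of the list, -0.23, with an adjusted p of 0.323 and a mean of 3.90 CPM in the controls, and 21.9% of its exonic bases are shared with a readthrough gene. TIMM23 and TIMM23B, near-identical copies, had log2 fold changes of -0.10 and -0.19. Of 9 genes of the TIM22 route and its small chaperones 0 were called, with a median of -0.16. TIMM10 had the largest value there, -0.27 (adjusted p = 0.0682), and passed the threshold without control replicate 2 (0.0363), with the trend with abundance removed (0.0458), with the length trend removed (0.0333) and with no filter (0.0351).

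In the intermembrane space CHCHD4, the import oxidoreductase, was called higher, from 14.4 ± 1.03 to 17.7 ± 0.135 CPM (SD, n = 3; log2 fold change 0.30, adjusted p = 0.0206), as 1 of 3 genes in its list, and its call was lost without knockdown replicate 1 (adjusted p = 0.073), control replicate 1 (0.109) or control replicate 3 (0.0641). Of 7 processing peptidases MIPEP alone was called, with a log2 fold change of 0.21 (adjusted p = 0.0363). Its call was lost without any 1 library other than knockdown replicate 3, with adjusted p-values of 0.172 and 0.0917 without knockdown replicates 1 and 2 and of 0.116, 0.0529 and 0.0999 without control replicates 1, 2 and 3, and also in DESeq2 (0.0581), with the length trend removed (0.0527) and with no filter (0.0741). Both subunits of the main processing peptidase, PMPCA and PMPCB, were not called. Of 9 genes for quality control at the outer membrane, the deubiquitinase USP30 was called higher (0.31, adjusted p = 0.0196) and the phosphatase PGAM5 lower (-0.21, adjusted p = 0.0317). Over all tested genes 13.3% were higher and 11.9% lower. USP30 lost its call without knockdown replicate 1 (adjusted p = 0.0679), control replicate 1 (0.0604) or control replicate 3 (0.0543), in DESeq2 (0.0522) and with no filter (0.0516), and PGAM5 without these (0.0919, 0.13 and 0.0829) without knockdown replicate 2 (0.0887) and with the abundance trend removed (0.106). PINK1, the kinase that TOMM7 helps to hold at TOM, had a log2 fold change of -0.26 and was not called, and 41.7% of its exonic bases are shared with other genes, mostly on the opposite strand.

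**Figure D4:**
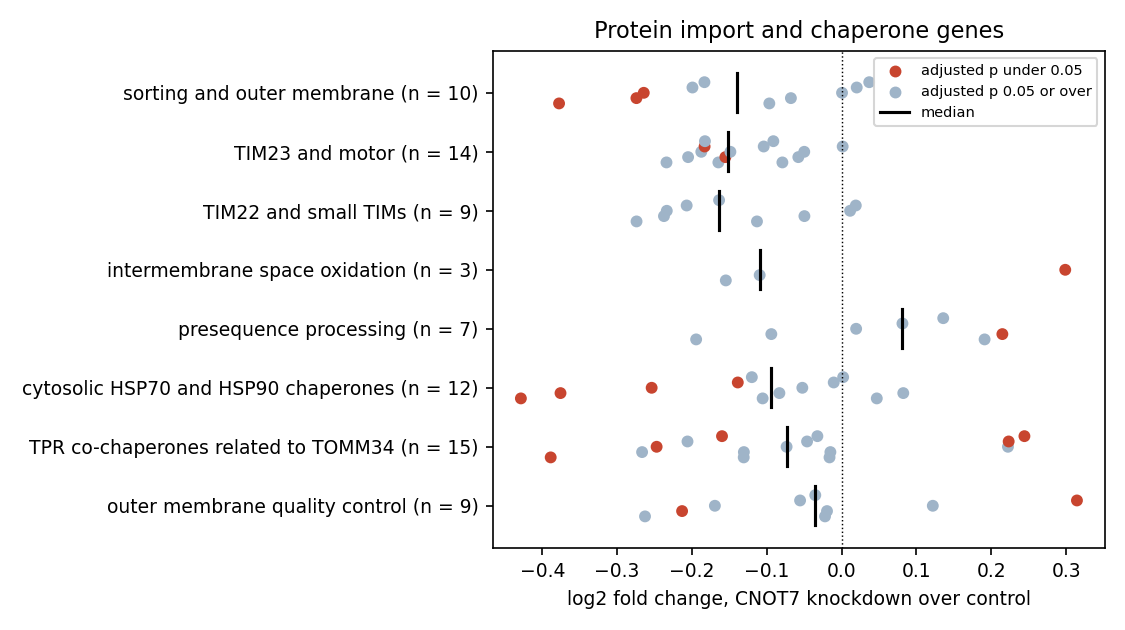
Log2 fold change of CNOT7 knockdown over control for each of the tested genes in 8 lists of the import route and its chaperones, in red where the adjusted p-value was under 0.05, with a black line at the list median. Medians lie between -0.16 and 0.081, and every gene lies between -0.43 and 0.31, far from the 0.98 of TOMM34.

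The difference in TOMM34 was also set beside the genes around it. The 5 nearest tested genes on either side span chromosome 20 from 44714844 to 45308529. Of these 10, 1 was higher and 1 lower, shares close to the 13.3% and 11.9% of all tested genes, and the median log2 fold change was 0.051. PABPC1L, whose gene on the opposite strand reaches over much of the TOMM34 locus without sharing an exonic base with it, was at 84.4, 81.0 and 86.9 CPM in the controls and at 85.7, 77.9 and 86.8 CPM in the knockdown libraries (log2 fold change -0.011, adjusted p = 0.922). On the other side the nearest tested gene, STK4-AS1, was below 1.2 CPM in every library (adjusted p = 0.717). The 2 called neighbours were both low. RIMS4 went from 3.31, 3.01 and 3.19 CPM to 6.42, 4.60 and 6.28 CPM (log2 fold change 0.86, adjusted p = 7.00e-04), and it kept its call under all alternatives. PI3 went from 0.739, 0.817 and 0.718 CPM to 0.390, 0.254 and 0.302 CPM (log2 fold change -1.25, adjusted p = 0.0207). PI3 kept its call without knockdown replicate 1 but lost it without each of the other libraries, with adjusted p-values of 0.0647 and 0.0544 without knockdown replicates 2 and 3 and of 0.0555, 0.0641 and 0.0581 without control replicates 1, 2 and 3, and also in DESeq2 (0.0868).

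**Figure D5:**
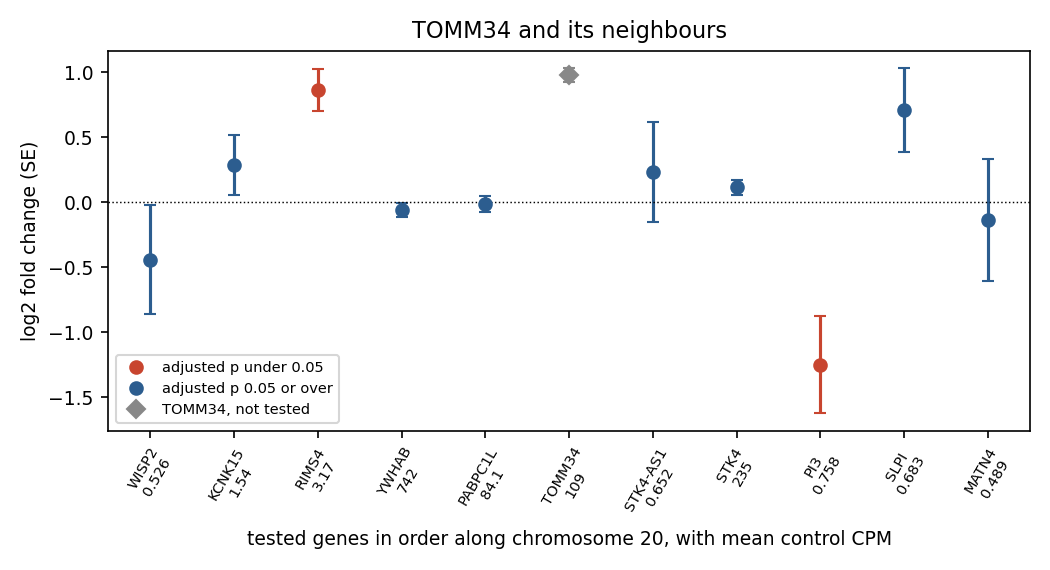
Log2 fold change with its standard error for TOMM34 (grey, not tested) and the 5 nearest tested genes on either side in their order along chromosome 20, with the mean control CPM under each name. The well expressed neighbours YWHAB, PABPC1L and STK4 lie between -0.059 and 0.11.

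The 5 genes with a pattern most like that of TOMM34 are given as a description. None is in the import lists, but these hold only 79 tested genes, so their absence says nothing about the import route. Over the 6 libraries, and among 10106 other genes with a mean of at least 10 CPM, the highest Pearson correlations of log2 CPM with TOMM34 were those of KRT74, CD8B2, LUCAT1, GRK3 and NAV2, each with an r of at least 0.998. These values mostly reflect the 2 groups of libraries, which all genes share, and they carry no test. Their log2 fold changes ran from 0.44 for GRK3 to 1.21 for LUCAT1. On the same measure TOMM20 had an r of 0.770, TOMM7 of 0.145, TOMM40L of 0.149 and TOMM70 of 0.0235 with TOMM34, while TOMM40 had -0.654 and TOMM22 -0.908.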

How the data were processed

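The authors deposited 1 table of raw counts per gene for 6 libraries, without normalization, with gene lengths in bases. Total RNA was extracted with TRIzol and libraries were made with an NEBNext Ultra kit. The submitters' processing notes name CASAVA 1.8, fastp, HISAT2 2.0.5, featureCounts 1.5.0-p3, DESeq2 1.20.0 and GRCh38, and strand settings are not given in the sources used here. All 58735 gene identifiers and lengths matched GENCODE release 29. Columns of other samples numbered 0.

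The tests used edgeR 4.0.16 in R 4.3.3 (filterByExpr, which left 17574 genes, TMM, glmQLFit and glmQLFTest, 2 groups, no replicate block). P-values were adjusted by Benjamini-Hochberg with a threshold of 0.05. Standard errors were derived from each fold change and its F statistic. The alternatives were DESeq2 1.42.0, RLE factors, no filter, a minimum of 10 counts in all 6 libraries, a replicate block, removal of trends with abundance or gene length (limma 3.58.1), and each library left out in turn. In counts simulated for this comparison over 17574 genes, edgeR recovered 80 of 100 genes changed by 1 on the log2 scale and 58 of 100 changed by 0.5, with 8 false calls. Only 200 genes were changed there, against 4424 called in the data, so these rates need not hold for the data.

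Named genes were the members, TOMM70, TOMM20L and CNOT7, in each list the 4 smallest adjusted p-values with groups that do not overlap plus the largest fold change, the called or nearest neighbours of TOMM34, and the 5 genes most correlated with it. SGTA and the uncalled partners named beside them were added after their values were seen. The members and lists were chosen with earlier results of these data known. Within groups, replicates differed by more than counting noise (chi-square per gene from 3.20 to 10.8, where 1 is sampling alone), so all were kept. Figures were drawn with matplotlib 3.10.9.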

Additional observations from a re-analysis of the deposited data

How the results depend on the processing

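TOMM34 kept its direction under all 13 alternatives, with log2 fold changes from 0.96 to 1.04, the last with the trend with abundance removed, and from 0.96 to 0.99 with 1 library left out. With 1 library left out, TOM members called besides TOMM34 ranged from 0 to 1 higher and from 0 to 2 lower, import genes from 1 to 5 higher and from 8 to 21 lower, and all genes from 1626 to 2323 higher and from 1367 to 2219 lower. With the abundance trend removed 1 TOM member was lower. DESeq2 and the fit with no filter each called 2 import genes higher. The replicate block called 3306 genes lower, 3202 higher, and of the import genes 31 lower and 7 higher. Same-numbered libraries were not shown to be pairs, since their deviations correlated at 0.209, 0.617 and 0.0726 for numbers 1, 2 and 3, and not every library correlated best with its own number. With the block the same numbers of TOM members were called (1 higher, 2 lower). Uncalled values close to 0 changed sign. TOMM70 was -9.6e-04 in DESeq2, -0.0042 with the length trend removed and -0.0053 with no filter, and with 1 library left out it ranged from -0.059 to 0.072, below 0 without knockdown replicate 2 and control replicate 3 (-0.011). TOMM7 ranged from -0.099 to 0.20, below 0 without knockdown replicates 1 (-0.014) and 3 (-0.059) and control replicate 2. TOMM40L was -0.018 with the abundance trend removed and ranged from -0.030 to 0.14, below 0 without knockdown replicates 1 (-0.020) and 3. PABPC1L was 0.035 with the abundance trend removed and ranged from -0.045 to 0.035, above 0 without knockdown replicate 2 and control replicate 3 (0.011), and STK4-AS1 ranged from -0.19, without knockdown replicate 2, to 0.51. With the block TIMM10 was called (edgeR adjusted p = 0.00944). The cause of these shifts was not tested. TOMM5 had 54 to 67 counts per library and the widest interval of the members tested.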
